A study of Mus musculus with 8 samples.

Results

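The ErbB receptors and the EGF family ligands that bind them were examined in 8 mouse mammary tumours, 4 from mice with floxed Fgfr1 alleles (FGFR1 KO) and 4 from control mice (WT). The 10 genes were Egfr, Erbb2, Erbb3, Erbb4, Egf, Tgfa, Hbegf, Btc, Ereg and Nrg1, receptors and ligands that could compensate for the loss of FGFR1. They were found through the RefSeq accession of each array probe, which gave 12 probes of the 55681 on the array, and 10 genes of the 21368 named. Of these, 9 probes for 7 genes were bright enough to be tested, among 39795 tested probes for 16761 genes. The probes of Erbb4, Btc and Ereg were not well above background in the tumour channel on any array.

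The FGFR1 KO tumours came from K19-tva/fgfr1loxP/loxP mice and the WT tumours from K19-tva mice, so both groups carry K19-tva, a transgene that puts the avian virus receptor tva under the promoter of keratin 19. All samples are labelled as FVB, and the floxed allele had been crossed into that strain from ICR. The agent that started the tumours, the Cre that deleted Fgfr1 and the ages of the mice are not given in the sources used here. Each tumour was hybridised on 1 2-colour Agilent array against a universal human reference RNA, and values are log2 ratios, tumour (red) over reference (green). A difference is FGFR1 KO minus WT on that scale. The labels do not say that the samples came from separate animals, so a p-value measures the spread between these samples.

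ErbB receptors are transmembrane tyrosine kinases that pair with themselves or with one another when a ligand binds, and then signal through the Ras-ERK and PI3K pathways. ErbB2 has no known ligand of its own and acts as the preferred partner of the others, while ErbB3 has a weak kinase and recruits PI3K. In the mammary gland these receptors guide ductal growth and milk-producing differentiation, and ERBB2 is amplified in a class of human breast cancers. The ligands are made as membrane-bound precursors that proteases release.

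Some features of the arrays bear on these genes. The share of spots with red well above background was 43.9% to 69.2% in WT and 68.9% to 83.9% in FGFR1 KO. Each genotype filled its own row of 1 slide, and the effects of row and of genotype cannot be told apart. WT 2 correlated least with the rest, at a mean r of 0.379, while the other 7 arrays had 0.598 to 0.713. Markers of fat were high on WT 1 and WT 2, at list medians of 3.64 and 4.30, where the other arrays had 0.21 to 0.43. Markers of skeletal muscle were high there too, at 2.99 and 8.63 against -0.81 to 0.71. The luminal epithelial list of 8 genes, which includes Krt8, Krt18 and Krt19, had a median of 3.17, 2.31, 2.02 and 2.44 on FGFR1 KO 1 to 4 and of 1.56, -0.61, 2.50 and 2.96 on WT 1 to 4. The luminal median was thus above the reference on 7 arrays, while on WT 2 the 8 genes ran from -3.94 for Krt8 to 3.38 for Krt7, which was highest there of all arrays. In bulk tissue, fewer cells of a type and less RNA per cell cannot be told apart. A rectangle of the array that starts at row 97 and column 83 held 31.3% of probe spots, and negative controls there read a median of 35.5 and 41 red units above local background on WT 1 and WT 3, against 0 to 6.25 on the other 6 arrays. Fgfr1 itself, read by its brightest probe, averaged 0.31 ± 0.11 (SD, n = 4) on the FGFR1 KO arrays against 0.31 ± 0.06 (SD, n = 4) for WT. Where that probe lies relative to the floxed part is unknown here, so it does not check the labels.

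No member gene passed the test between genotypes. Over all probes, 4 of 39795 (0.0101%) passed limma's test after Benjamini-Hochberg adjustment, each lower in FGFR1 KO, and 0 of the 9 member probes were among them. At an unadjusted p under 0.05, 8.48% of all tested probes passed and 0 of the 9 member probes did. The groups did not overlap at 5.1% of all tested probes and at 0 of the 9 member probes. The smallest adjusted p among the 7 genes was 0.672, for Hbegf.

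**Figure D1:**
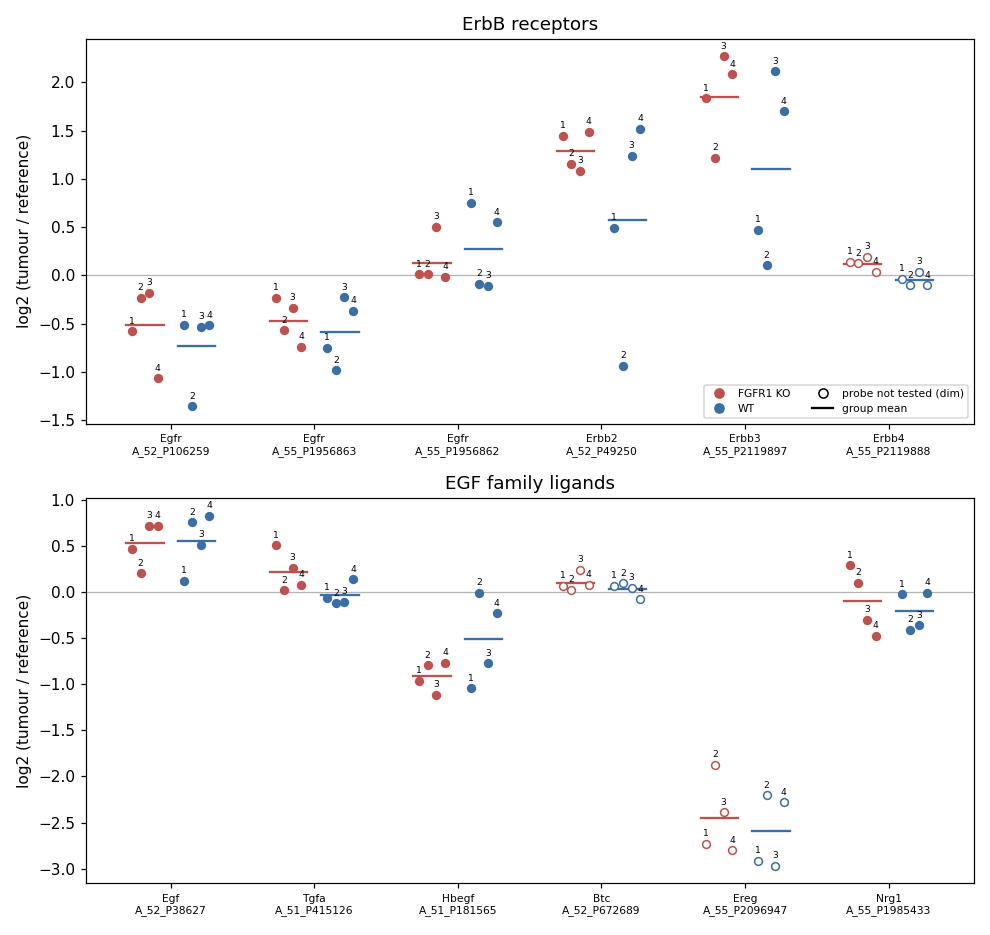
Log2 ratio of tumour to reference for every probe of the 10 genes, with 1 point per array numbered by replicate and a bar at the group mean. Erbb2 and Erbb3 are lowest on WT 1 and WT 2 and alike on the other arrays, while the open points mark probes that were not above background.

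Erbb2, the receptor without a ligand, read 1.44, 1.15, 1.09 and 1.49 on FGFR1 KO 1 to 4. It read 0.49, -0.94, 1.24 and 1.52 on WT 1 to 4. WT 3 and WT 4 lay within or just above the FGFR1 KO range, WT 1 lay below it and WT 2 far below it. The FGFR1 KO mean was 1.29 ± 0.20 (SD, n = 4) and the WT mean 0.58 ± 1.099 (SD, n = 4). The difference was 0.72 ± 0.47 (SE), with a 95% confidence interval from -0.36 to 1.79, or 0.779-fold to 3.46-fold (limma, adjusted p = 0.698; exact permutation p = 0.343, two-sided). Without WT 2 it was 0.21 ± 0.25 (SE), and without both WT 1 and WT 2 it was -0.085 ± 0.20 (SE), with an interval from -0.55 to 0.38. WT 1 and WT 2 are the arrays with high fat and muscle markers, whose part in the result was not tested.

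Erbb2 was printed at 10 spots on each array, 4 of them inside the rectangle that was bright on WT 1 and WT 3, called the bright area. The spread between spots of 1 array, which share RNA and labelling, can thus be read. The SD over spots of 1 array ran from 0.104 to 0.252, which covers spot noise alone and not the spread between samples. The lowest Erbb2 spot on any FGFR1 KO array read 0.83, and the highest spot on WT 2 read -0.43. The difference between genotypes was 0.71 over the spots outside the area and 0.73 over those inside it. The genotype difference was thus as large without the area, and WT 2 was low at every spot used.

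Erbb3, the partner that recruits PI3K, read 1.83, 1.22, 2.27 and 2.08 on FGFR1 KO 1 to 4 and 0.47, 0.11, 2.11 and 1.70 on WT 1 to 4. As for Erbb2, the ratios on WT 1 and WT 2 were below every FGFR1 KO array. The other pair of WT arrays lay within the FGFR1 KO range. On WT 1, unlike for Erbb2, red itself was within the FGFR1 KO range, and the reference signal was at its highest of all arrays. The difference was 0.75 ± 0.45 (SE), with an interval from -0.27 to 1.78 (limma, adjusted p = 0.673; exact permutation p = 0.229, two-sided). Without WT 2 it was 0.42 ± 0.40 (SE), and without both WT 1 and WT 2 it was -0.056 ± 0.30 (SE). Its single spot, in row 166 and column 114, lay inside the bright area, so no value without that area exists. Its net red signal of 203 to 3654 units was well above the level of the negative controls there.

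**Figure D2:**
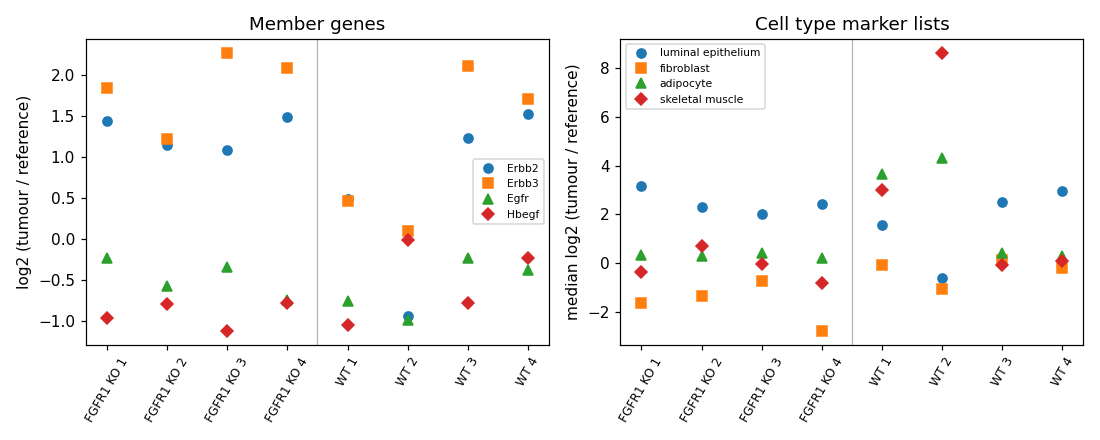
Left, log2 ratios of Erbb2, Erbb3, Egfr and Hbegf on each array. Right, the median log2 ratio of 4 cell type marker lists on the same arrays. Erbb2, Erbb3 and the luminal list fall on WT 1 and WT 2, where the adipocyte and skeletal muscle lists rise to 3.64 and 4.30 and to 2.99 and 8.63. For Erbb3 on WT 1 the reference signal was high and the tumour signal was within the FGFR1 KO range.

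Egfr, the receptor of EGF, TGF-alpha and amphiregulin, had 3 probes. The brightest, A_55_P1956863, read -0.23, -0.57, -0.34 and -0.74 on FGFR1 KO 1 to 4 and -0.75, -0.98, -0.23 and -0.37 on WT 1 to 4. The groups overlapped. WT 2 lay below the lowest FGFR1 KO array, while WT 1 was nearly level with it, unlike for Erbb2 and Erbb3. Its difference was 0.11 ± 0.21 (SE), and the interval from -0.35 to 0.58 corresponds to 0.783-fold to 1.49-fold (limma, adjusted p = 0.886). Changes within that range were not resolved.

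The second Egfr probe, A_52_P106259, designed on another transcript accession and printed at 10 spots, differed by 0.22 ± 0.27 (SE). It was lowest on WT 2 at -1.36, with WT 1, 3 and 4 at -0.53 to -0.52, and its lowest FGFR1 KO array was KO 4. The third, A_55_P1956862, differed by -0.15 ± 0.24 (SE) and was well above background on 3 of 4 WT arrays. Of all arrays it was highest on WT 1, at 0.75, so a low WT 1 was not shared by the Egfr probes. The signs of the 3 probes therefore differed, and each interval included 0. The 10-spot probe differed by 0.28 over spots outside the bright area and by 0.07 over the 2 or 3 spots used inside it. Without WT 1 and WT 2 the brightest probe differed by -0.17 ± 0.20 (SE), so its sign turned.

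Erbb4, the receptor known for driving alveolar differentiation, had a net red signal of -2 to 12 units and was not well above background in red or green on any array. Its ratios were 0.04 to 0.19 on the FGFR1 KO arrays and -0.10 to 0.04 on the WT arrays. Those sets did not overlap (exact permutation p = 0.0286, two-sided, the smallest that 4 against 4 arrays allow). With both channels at background the ratio is no measure of the transcript, and no fold is given. Its level could not be determined with this probe.

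**Figure D3:**
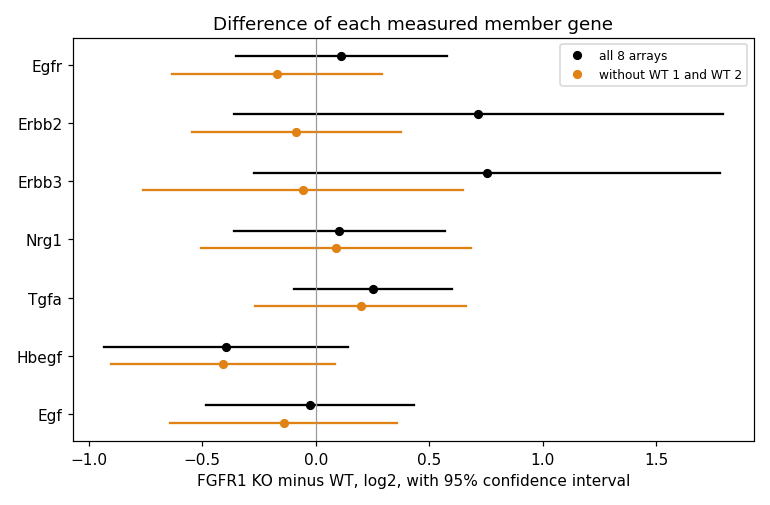
Difference between FGFR1 KO and WT on the log2 scale with its 95% confidence interval for the 7 measured genes, each by its brightest probe, over all 8 arrays and without WT 1 and WT 2. Every interval includes 0, and Erbb2 and Erbb3 move from 0.72 and 0.75 to -0.085 and -0.056.

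Among the ligands, Hbegf had the smallest p. It encodes heparin-binding EGF-like growth factor, a ligand of EGFR and ErbB4. It read -0.96, -0.79, -1.11 and -0.77 on FGFR1 KO 1 to 4 and -1.05, -0.00, -0.77 and -0.23 on WT 1 to 4. The FGFR1 KO arrays lay close together, while the WT arrays spread over a wider range that covered nearly all of theirs. The difference was -0.40 ± 0.24 (SE), with an interval from -0.93 to 0.14 (limma, adjusted p = 0.672; exact permutation p = 0.229, two-sided). It was -0.23 without WT 2 and -0.41 without both WT 1 and WT 2. On WT 1 the spot was not well above background. Its spot lay outside the bright area.

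Tgfa, which encodes the EGFR ligand TGF-alpha, read 0.51, 0.02, 0.26 and 0.08 on FGFR1 KO 1 to 4 and -0.06, -0.12, -0.10 and 0.14 on WT 1 to 4. Only WT 4 reached into the FGFR1 KO range. The difference was 0.25 ± 0.15 (SE), with an interval from -0.09 to 0.60 (limma, adjusted p = 0.676; exact permutation p = 0.0857, two-sided). Most of its 10 spots were well above background on all 4 FGFR1 KO arrays but on WT 4 alone among the WT arrays. On WT 1 and WT 3 that held for 0% of spots and on WT 2 for 10% of them. Tgfa thus passed the brightness filter mainly through the FGFR1 KO arrays, where it read higher, and its difference and p-values cannot be read apart from that. Net red signal, which is not scaled between arrays, was 46.9 to 228 units in FGFR1 KO and 51.5 to 130 units in WT tumours. The difference between genotypes was 0.27 over the spots outside the bright area and 0.15 over the 1 or 2 spots used inside it. It was 0.64 with Agilent's log ratio and 0.61 with red processed signal alone, over 1.5 times the main value, and neither passed (limma, adjusted p = 0.475 and 0.606). Their intervals ran from 0.12 to 1.15 and from -0.08 to 1.29. The SD over spots of 1 array was 0.178 to 0.368. That is the noise of a single spot, whereas an array value is a mean over spots. Between arrays the SD was 0.22 in FGFR1 KO and 0.12 in WT.

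Egf, which encodes the founding member of the family, read 0.47, 0.20, 0.72 and 0.72 on FGFR1 KO 1 to 4 and 0.12, 0.76, 0.51 and 0.83 on WT 1 to 4. The groups covered nearly the same range. The difference was -0.03 ± 0.20 (SE), with an interval from -0.48 to 0.43, or 0.716-fold to 1.35-fold (limma, adjusted p = 0.977). Its spots were mostly above background in red on 3 FGFR1 KO and 2 WT arrays, and in green on 4 FGFR1 KO and 2 WT arrays. Net signal was 26 to 131 red and 83.1 to 119 green units. At such levels the fold bounds depend on the processing. The interval ran from -0.68 to 1.12 with Agilent's log ratio and from -0.58 to 1.25 with red signal alone. With the deposited matrix values it ran from -0.76 to 0.42. On every WT array the mean of the 2 or 3 spots used inside the bright area was higher than that of the spots outside it, by 0.08 to 0.36, the most on WT 4. Inside minus outside was 0.21 and 0.20 on FGFR1 KO 2 and 4, and -0.18 and -0.02 on FGFR1 KO 1 and 3. The difference between genotypes was 0.01 over the spots outside the area.

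Nrg1, which encodes the ErbB3 and ErbB4 ligand neuregulin 1, was among the brightest of these probes, with net red signals of 652 to 3278 units and spots well above background on all 8 arrays. It read 0.29, 0.11, -0.30 and -0.48 on FGFR1 KO 1 to 4 and -0.02, -0.41, -0.36 and -0.01 on WT 1 to 4. The FGFR1 KO arrays spanned the whole WT range. The difference was 0.10 ± 0.20 (SE), with an interval from -0.36 to 0.57, or 0.779-fold to 1.48-fold (limma, adjusted p = 0.896). Fibroblasts are a known source of neuregulin 1, and 7 of 7 fibroblast markers had a difference below 0, with a list median of -1.68 and array medians of -2.78 to -0.72 in FGFR1 KO and -1.08 to 0.15 in WT tumours. Their relation to Nrg1 was not tested.

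Btc and Ereg encode betacellulin and epiregulin, further ligands of EGFR and ErbB4. The Btc probe had 3 to 24 net red units and was not well above background in red on any array, and in green on 1 array alone. The Ereg probe had 2 to 23 net red units but 534 to 713 net green units, so it was lit by the human reference on all 8 arrays and by the tumours on none. Its ratios of -2.80 to -1.88 in FGFR1 KO and -2.97 to -2.21 in WT tumours are set by the reference and the background. No difference between genotypes could be measured for either gene, and an Ereg or Btc transcript below the detection of these probes remains possible.

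**Figure D4:**
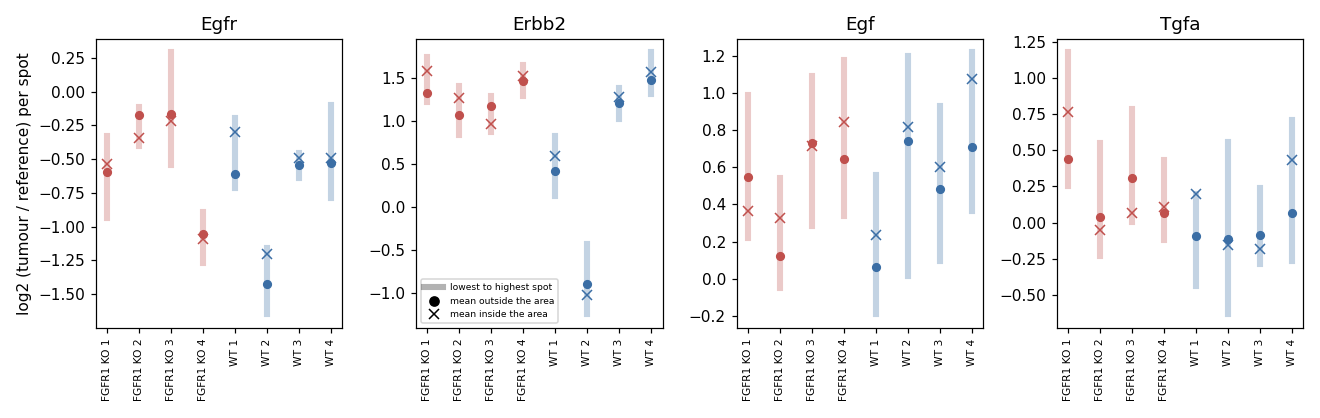
Log2 ratio of tumour to reference for the 4 genes printed at 10 spots. Bars run from the lowest to the highest spot of an array, circles give the mean of the spots outside the bright area and crosses the mean of those inside it. For Erbb2 the spread within an array is small beside the drop on WT 2, while for Egf and Tgfa the bars of most arrays overlap.

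From the highest to the lowest, the signed differences ran from Erbb3 (0.75) and Erbb2 (0.72) through Tgfa (0.25), Egfr (0.11), Nrg1 (0.10) and Egf (-0.03) to Hbegf (-0.40). Whether they differ from one another was not tested. The median over the 3 measured receptors was 0.72 and that over the 4 measured ligands 0.04, against -0.00 over all 16761 genes. Without WT 1 and WT 2 these medians were -0.085 for receptors and -0.027 for ligands. The ratios of Erbb2 and Erbb3 were low on the same arrays, although red for Erbb3 was below the FGFR1 KO range on WT 2 alone.

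The reference channel gives a check on the same probes. After normalization, green differed between the groups by 0.16 for Erbb2, -0.08 for Erbb3, -0.01 for the brightest Egfr probe, 0.10 for Nrg1 and 0.16 for Hbegf. The corresponding red differences were 0.88, 0.68, 0.11, 0.21 and -0.24. The Hbegf ratio therefore drew 0.16 of its size of 0.40 from the reference channel, whereas for Erbb2 red differed by more than the ratio did and for Erbb3 most of the difference in group means lay in red. Single arrays can differ from this. On WT 1 the log2 green signal of Erbb3 was 10.35, its highest on any array, and red was 10.82, within the FGFR1 KO range of 10.58 to 11.72. On WT 2 Erbb3 red was 8.86, its lowest. Erbb2 red was 9.12 on WT 1 and 7.74 on WT 2, against 9.92 to 10.58 in FGFR1 KO.

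Other genes of the pathway were taken from lists of further ligands, ligand-releasing proteases, signal relays, brakes on the receptors, and receptor partners. Of 69 listed genes 65 were tested, 35 of them with a difference above 0 and 30 below it, with a median of 0.025, where 49.6% of all genes were above 0. Among the 7 members 5 were above 0, among them Tgfa, which passed the filter mainly through the FGFR1 KO arrays. None of the 65 passed after adjustment, 6 (9.23%) had an unadjusted limma p under 0.05 against 7.88% of all genes, and 3 (4.62%) did not overlap between groups against 4.35% of all genes. These shares were close to the background.

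Of the 4 further ligands tested, 2 were above 0 and 2 below it. Nrg3, which encodes a ligand of ErbB4, differed by 0.66 ± 0.28 (SE) and read -0.22 and -0.34 on WT 1 and WT 2 where the other 6 arrays had 0.52 to 1.13 (limma, adjusted p = 0.578). Its difference without those arrays was 0.18. Nrg4, an ErbB4 ligand made by fat tissue, differed by -0.35 ± 0.25 (SE) and was highest on WT 1 and WT 2, at 0.72 and 1.24. The adipocyte and the skeletal muscle lists were also highest on those arrays, and without WT 1 and WT 2 Nrg4 differed by -0.01. The relation of either list to Nrg4 was not tested. Areg, which encodes amphiregulin, had no tested probe.

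Among 13 genes of ligand release, 5 were above 0 and 8 below it, with a median of -0.10. Adam17 encodes the main protease that sheds TGF-alpha, amphiregulin and HB-EGF precursors. It read -0.22, -0.05, -0.09 and -0.49 on FGFR1 KO 1 to 4 and 0.04, 0.30, 0.16 and 0.20 on WT 1 to 4. All FGFR1 KO arrays were below all WT arrays, yet the difference of -0.39 ± 0.15 (SE) did not pass (limma, adjusted p = 0.531), and its single spot lay in the bright area. It was -0.40 without WT 1 and WT 2. Adam8, a protease gene of leukocytes, differed by -1.17 ± 0.36 (SE), again without overlap and with its spot in the bright area (limma, adjusted p = 0.447). It read -2.20, -1.11, -1.34 and -1.20 on FGFR1 KO 1 to 4 and -0.60, -0.66, 0.69 and -0.60 on WT 1 to 4. The highest value was thus on WT 3, where the area was bright. Without WT 1 and WT 2 the Adam8 difference was -1.51. Macrophage markers were 6 of 6 below 0, with a median of -0.27 and array medians of 0.22 to 0.61 in FGFR1 KO and 0.51 to 1.19 in WT tumours. Their part in the Adam8 difference was not tested.

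**Figure D5:**
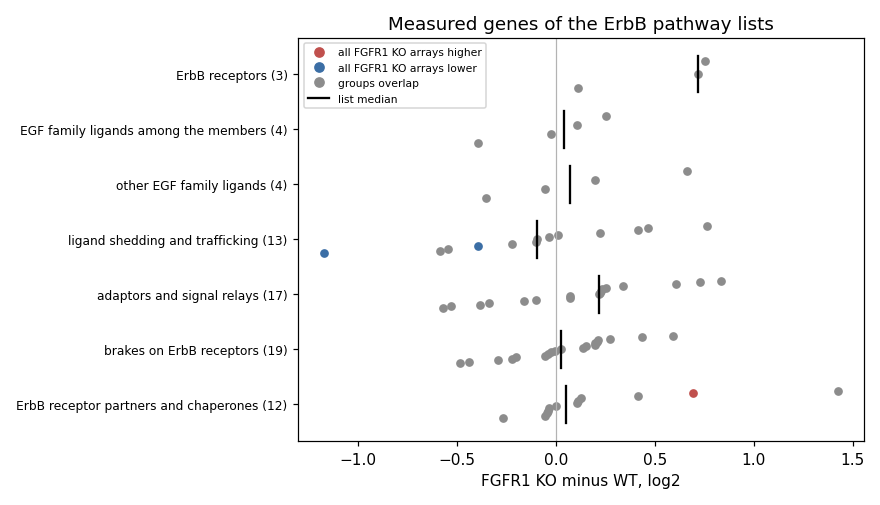
Difference between FGFR1 KO and WT on the log2 scale for every measured gene of the ErbB pathway lists, with the number of genes per list in brackets and a black line at the list median. Grey points overlap between the groups, the 2 blue points are Adam8 and Adam17, and the red point is Erbin.

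The 17 tested adaptors and relays had 11 members above 0 and 6 below it, with a median of 0.21 that turned to -0.082 without WT 1 and WT 2. Src, which encodes a kinase that acts beside ErbB receptors, differed by 0.83 ± 0.36 (SE) and read -1.45 on WT 2. Ptpn11, which encodes the phosphatase SHP2 that links receptors to Ras, differed by -0.39 ± 0.17 (SE). Neither passed (limma, adjusted p = 0.588 and 0.589). The 19 tested brakes had 10 above 0 and 9 below it, with a median of 0.03. Cblc, an epithelial ubiquitin ligase gene of the Cbl family, read 0.23 and 0.25 on WT 1 and WT 2 with 1.19 to 1.56 on the other arrays. It differed by 0.59 ± 0.28 (SE), or 0.08 without that pair. Rnf41, which encodes the ligase Nrdp1 that lowers ErbB3, differed by 0.44 ± 0.24 (SE), with -0.56 on WT 2. Neither brake passed (limma, adjusted p = 0.607 and 0.650).

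The 12 partners and chaperones had 7 members above 0 and 5 below it, with a median of 0.05. Erbin encodes a scaffold that binds ErbB2 and holds it at the basolateral membrane of epithelial cells. It read 1.16, 0.41, 0.56 and 0.98 on FGFR1 KO 1 to 4 and 0.11, -0.28, 0.31 and 0.20 on WT 1 to 4. Each FGFR1 KO array was above each WT array, but the difference of 0.69 ± 0.21 (SE) did not pass (limma, adjusted p = 0.447). It was 0.52 without WT 1 and WT 2, and its single spot lay in the bright area. Muc4, a membrane mucin gene whose product can bind ErbB2, differed by 1.42 ± 0.96 (SE) with the range of 0.47 to 5.04 in FGFR1 KO and -0.20 to 2.41 in WT tumours, highest on FGFR1 KO 4 (limma, adjusted p = 0.70).

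Marker lists of the cell types in such tumours gave no called gene either. At an unadjusted limma p under 0.05, 7.88% of all genes passed. So did 7 of 7 fibroblast, 2 of 6 adipocyte, 2 of 6 macrophage, 1 of 5 milk protein and 1 of 5 endothelial genes. In the luminal, basal, muscle, neutrophil and T cell lists 0 genes did. Luminal markers were above 0 in 7 of 8 genes, among them Krt8 (1.56 ± 1.38, SE) and Krt18 (1.43 ± 1.04), with a median of 1.30 that turned to -0.15 without WT 1 and WT 2. Basal markers were above 0 in 4 of 7 genes (Krt5 0.74, Krt14 -0.18) and milk protein genes in 5 of 5 (Csn1s1 3.27, Csn2 0.87). Without WT 1 and WT 2, Krt5 turned to -0.38, Csn2 to -0.62 and the basal median from 0.13 to -0.34, while the milk median was 0.52. Below 0 were 7 of 7 fibroblast genes (Col1a1 -1.93, Col1a2 -1.65), 6 of 6 adipocyte genes (Adipoq -2.55, Plin1 -1.94) and 6 of 6 muscle genes (Acta1 -3.03, Ckm -2.56). Without WT 1 and WT 2 the adipocyte and muscle medians were -0.070 and 0.29, whereas the fibroblast median was -1.80. Macrophage genes (Adgre1 -0.82, Csf1r -0.25) were below 0 in 6 of 6, endothelial genes (Pecam1 -0.64, Cdh5 -0.37) in 4 of 5, neutrophil genes (S100a8 -0.90, S100a9 -2.03) in 3 of 4 and T cell genes (Cd3e -0.35, Cd3d -0.52) in 3 of 5. Without WT 1 and WT 2 the macrophage and neutrophil medians were -0.42 and -0.41, and the endothelial median was -0.03. The T cell median turned from -0.35 to 0.07 without that pair, Cd3d to 0.07 and Cdh5 to 0.14.

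The genes most like the 2 members with the smallest p were sought by Pearson's r over the 8 arrays among 16477 genes, as a description. Erbb3 was most like Sytl1 (r = 0.969), Tmem40 (r = 0.968) and Tmem87b (r = 0.961), and 0.479% of genes had an r above 0.9. Sytl1 read 0.18 and 0.11 on WT 1 and WT 2 and 0.34 to 0.79 on the other arrays, and Tmem40 0.34 and -0.07 against 0.59 to 1.20. Hbegf was most like Olfr917 (r = 0.975), Ndc80 (r = 0.966) and Gm30827 (r = 0.959), with 0.182% of genes above 0.9. Ndc80, a kinetochore gene, read 0.10 on WT 2 and -0.29 on WT 4, the others lying at -1.93 to -1.10. All these values come from the same 8 arrays.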

How the data were processed

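Tumour RNA and reference RNA were read on 8 2-colour arrays, 1 per sample. Per the file headers, Feature Extraction 11.0.1.1 was used on a probe design of mm9, and the deposited median signal and background columns are linear spot intensities without correction. Per the file headers, processed signals are background-subtracted, detrended and dye-normalized intensities, and the log ratio is a log10 of red to green. The deposited series matrix holds log2 ratios of red over green, as taken from its slope of 0.779 to 0.883 on the scanner's log2 ratio and its correlation of 0.942 to 0.981 with it. Its normalization and centring remain unknown, and its column medians ran from -0.0152 to 0.0155.

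Tumour RNA carries the red dye per the labelling protocol, which was followed, although the samples' dye label reads cy3. Ratios were recomputed (R 4.3.3, limma 3.58.1): normexp on median signals with offset 50, loess within arrays with control and outlier spots at weight 0, removal of those spots, and averaging of replicate spots. A probe was tested if most of its spots (50% or more) passed the red background flag on at least 4 arrays and it had at least 3 values per group. The offset pulls dim ratios toward 0, and the filter removes dim probes. Genes were named through RefSeq accessions (table of GRCm38.p6, names only), which matched 28331 probes, and represented by the probe with the brightest mean red signal. Groups were compared by limma's lmFit and eBayes, two-sided, at an adjusted p of 0.05 (Benjamini-Hochberg, all tested probes).

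The members and lists were chosen with earlier results of these data known. Named genes were the members, Fgfr1, the 2 with the smallest p per pathway list, the first 2 of each marker list (1 list is not reported here), and the 3 most like the 2 members with the smallest p. Krt7, Krt19 and Areg were named after the results were seen. The number of arrays limits the precision. Alternatives covered the ratio, channel, offset, scaling, filter, variance model, array weights, area, pairing, probe choice and arrays left out.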

Additional observations from a re-analysis of the deposited data

Results flagged for a closer look

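Among 24 sets of 4 values (each of the 12 probes in each group), 2 held an array far from the other 3 by Dixon's test, and about 1 in 20 would do so by chance. The Egfr probe A_52_P106259 read -1.36 on WT 2 against -0.53 to -0.52 on the other WT arrays. The Egfr probe A_55_P1956862 was at 0.51 on FGFR1 KO 3, with FGFR1 KO 1, 2 and 4 at -0.018 to 0.011.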

How the results depend on the processing

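Over 21 alternatives, 0 of the member genes passed in each, and their adjusted p stayed at 0.475 or above. Hbegf ran from -0.57 to -0.17 in the alternatives that gave it a value. Tgfa ran from 0.16 to 0.64, but it entered the test through the FGFR1 KO arrays, with 1 WT array above background, so its sign is no sign of stability. Without both WT 1 and WT 2, Egfr turned to -0.17, Erbb2 to -0.085 and Erbb3 to -0.056, and the medians moved to -0.085 for receptors, -0.082 for relays and -0.078 for partners. Egf turned to 0.22 with Agilent's log ratio, 0.33 with red signal alone, 0.17 with quantile scaling, 0.031 with array weights and 0.011 with the bright area left out. Red signal alone moved the median of all genes to 0.10, and the medians of member ligands to 0.33, other ligands to 0.35 and brakes to 0.20, which relative to that shift are smaller. With 1 array left out, the differences ran from -0.020 (without WT 2) to 0.23 for Egfr, from 0.21 to 1.03 for Erbb2, from 0.42 to 1.09 for Erbb3, from -0.17 to 0.084 for Egf and from -0.024 (without FGFR1 KO 1) to 0.23 for Nrg1, and the relay median from 0.016 to 0.21. Egf was above 0 at 0.084, 0.042 and 0.066 without FGFR1 KO 2, WT 2 or WT 4. The causes were not tested.

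The count of 4 called probes was 0 with Agilent's log ratio, red signal alone, quantile scaling, probes above background on all 8 arrays, trend and robust eBayes, the bright area left out or without WT 1 and WT 2. It was 139 with no filter on dim probes, 11 with array weights, and 0 to 1 with 1 array left out. Fitted with the replicate number as a block, it was 0, and Erbb3 differed by 0.75 ± 0.25 (adjusted p = 0.563). Same-numbered arrays correlated at -0.106 to 0.109 in their deviations, and arrays of unlike number at -0.13 to 0.083. Whether the numbers pair the samples cannot be decided from these values. Dim probes (Erbb4, Btc, Ereg, Egf and on most WT arrays Tgfa) are limited by signal over background. With the area left out Erbb3 had no value, and Egf, Tgfa and Hbegf had none when all 8 arrays had to be above background.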
